A study of Mus musculus with 12 samples.

Results

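A set of 30 genes was examined in kidneys of mice with a disrupted gene for methylmalonyl-CoA mutase. It was made up of enzymes that oxidise fatty acids and of genes that PPAR-alpha induces. The set was a list of gene symbols chosen with earlier results of these data known. Each gene was read by its probe set with 1 annotated symbol and the highest mean over the arrays. All 30 genes were measured, among 19934 genes in the whole table. Whole-kidney RNA was hybridised to 12 mouse gene arrays, 1 per female mouse on the C57BL/6 background, after 2 months on a high-protein diet. The 4 mutants were Mut-/- and carried the transgene TgINS-Alb-Mut, the 4 heterozygotes were Mut+/- and the 4 wild-type mice were Mut+/+. Mut is the older symbol of Mmut. A transgene so named places Mut behind the albumin promoter, which is active mainly in hepatocytes. By that design liver can make the enzyme and kidney would lack it, but the enzyme itself was not measured here. Only mutants carried the transgene, and its effect and that of the missing gene cannot be told apart. Females were used because more of them survived the diet, per the design text, and the mice's ages are not given in the labels. Values are log2 signals per probe set, and the number of arrays limits their precision.

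Mitochondrial beta-oxidation shortens fatty acids in a repeated cycle. Carnitine carries long chains across the inner membrane, acyl-CoA dehydrogenases of graded chain length open each round, a hydratase, a dehydrogenase and a thiolase complete it, and electron transfer flavoprotein takes the electrons to the respiratory chain. Peroxisomes run a related pathway for very long and branched chains. PPAR-alpha, a nuclear receptor, binds fatty acids and, with a retinoid X receptor, induces many of these genes in liver and kidney, where proximal tubule cells depend on fatty acids for most of their energy. Methylmalonyl-CoA mutase works in the same organelle, on propionate from amino acids and odd-chain fatty acids.

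Mmut lay between 8.20 and 8.47 in mutants, between 9.87 and 9.97 in heterozygotes and between 10.47 and 10.60 in wild-type mice, so the arrays followed their genotype labels. Kidney identity was checked on the proximal tubule transporter gene Slc34a1 and the thick ascending limb gene Umod, which averaged 13.32 and 13.23 in mutants, against 13.22 and 13.30 in wild-type mice. Mutant replicate 3 stood apart through adrenal cortex genes. The summed linear signal of 4 such genes (Cyp11a1, Cyp11b1, Star and Hsd3b1) was 12323 on that array and between 212 and 289 on each of the other 11. Results that rest on this array are therefore given with and without it. The summed signal of 9 proximal tubule markers was 49818 in mutant replicate 3 and 58203 to 58746 in the other mutants, from 56335 to 58373 in heterozygotes and from 57428 to 59290 in wild-type mice, so the other mutants lay inside the control range. Of the 9 markers 1, the endocytic receptor gene Cubn, was called lower in mutants against wild type, with and without replicate 3. For 6 markers of the straight S3 segment the sum was 9329 in mutant replicate 3 and 12937 to 14096 in the other mutants, from 14961 to 16735 in heterozygotes and from 16440 to 17872 in wild-type mice, with 4 of the 6 called lower against wild type. Without mutant replicate 3, 3 of the 6 were called lower and 1 higher. Of 5 white and 3 brown adipocyte markers measured, none was called higher or lower in mutants against wild type, and the mean difference was negative for all 8, and for 7 of 8 without mutant replicate 3. Lower calls were also made for 4 of 5 distal convoluted tubule, 3 of 6 endothelial and 2 of 4 podocyte markers, with none higher, while 2 of 5 macrophage markers were higher and 1 lower, and 1 of 5 collecting duct markers was higher. Without mutant replicate 3 there were 3, 2 and 2 lower calls for the first 3 lists, 1 higher and 1 lower for macrophages, and 2 higher for the collecting duct. With all arrays, 2.96% of all genes were called higher and 6.69% lower in mutants against wild type. Shares over all genes without mutant replicate 3 are not given here. None of 5 thick ascending limb, 5 hepatocyte and 3 skeletal muscle markers was called in either direction. The thick ascending limb sum was 22373 to 24542 in mutants, 24119 to 25188 in heterozygotes and 24851 to 26150 in wild-type mice. For hepatocyte markers it was 3417 to 5017, 3155 to 3706 and 2953 to 3356. On both sums the mutants lay apart from wild type and overlapped heterozygotes. Without mutant replicate 3 the mutant ranges were 23861 to 24542 and 3417 to 3813. The hepatocyte sum is mostly the signal of 1 gene, Cyp2e1, at 11.69 in mutants and 11.39 in wild-type mice. The mean difference from wild type was negative for 3 of the 5 hepatocyte markers, and for 4 without mutant replicate 3. The part of these cell type differences in the results was not tested. In whole tissue, fewer cells of a type and less RNA per cell cannot be told apart.

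In mutants against wild-type mice 12 of the 30 genes were higher and 1 was lower (limma, adjusted p under 0.05 over all genes). Over all 19934 genes 9.66% were called in this comparison, 2.96% higher and 6.69% lower. Because the set was chosen with earlier results of these data known, its counts beside all genes describe it and test nothing. The called genes were Slc25a20, Acadl, Acadvl, Acaa2, Eci1 and Decr1 of mitochondria, Eci2 and Acaa1b of peroxisomes, and Acot1, Acot2, Angptl4 and Plin2 among other targets, all higher, with Ppargc1a lower. The median log2 fold change was 0.22 over the 30 genes and 0.00 over all genes. The sizes were modest, from 1.22-fold for Decr1 to 1.96-fold for Acot1 among the called rises. By role, 6 of 17 mitochondrial genes, 2 of 5 peroxisomal genes and 4 of 6 other targets were called higher, with median log2 fold changes of 0.11, 0.30 and 0.71. All 4 mutants lay above all 4 wild-type arrays for 11 of the 30 genes, and the same held for 5.35% of all genes. They lay below all wild-type arrays for 1, Ppargc1a, against 9.4% of all genes. Without mutant replicate 3, 11 of the 30 were called higher and 1 lower, the call of Angptl4 being the one lost. The total of 13 calls became 9 without mutant replicate 2, 16 without mutant replicate 4 and 8 without wild type replicate 2 or 4. Calls over all genes also fell without wild type replicate 2 or 4. Shares over all genes without mutant replicate 2, 3 or 4 are not given here. Whether these changes in calls are particular to the set was not tested.

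**Figure D1:**
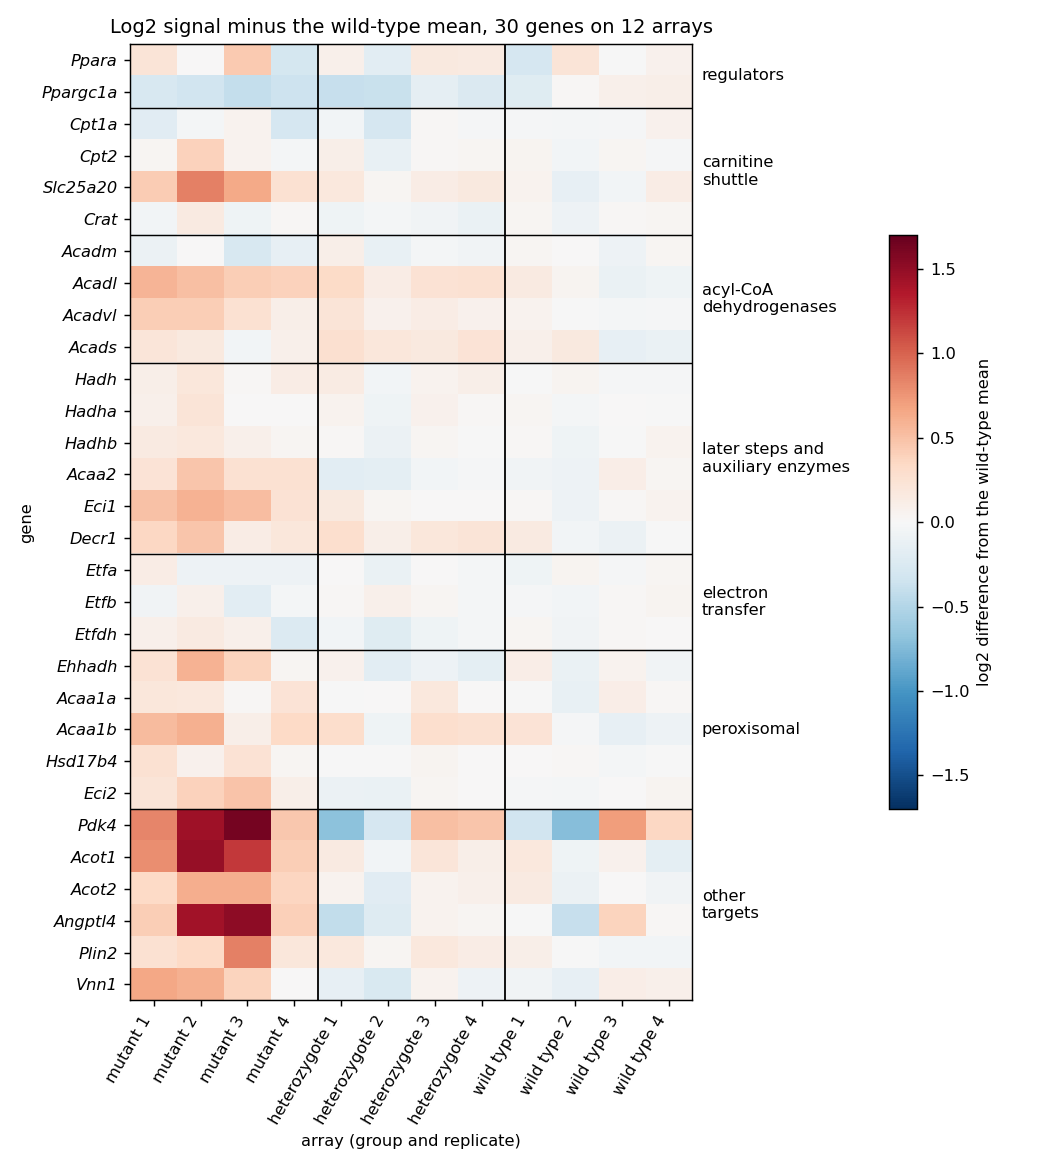
Log2 signal minus the wild-type mean for the 30 genes (rows, grouped by role) on the 12 arrays (columns, mutants at the left). Mutant replicates 1 to 3 are red over most of the mitochondrial, peroxisomal and target genes called higher, mutant replicate 4 is paler, and Ppargc1a is blue in mutants and heterozygotes.

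Of the 2 regulators, 1 was called. Ppara, which encodes PPAR-alpha itself, read 10.73, 10.52, 10.96 and 10.22 in mutants, 10.60, 10.34, 10.69 and 10.67 in heterozygotes, and 10.23, 10.74, 10.52 and 10.59 in wild-type mice. The 3 groups overlapped and no difference was called (mutant minus wild type, log2 fold change 0.09, 95% interval -0.22 to 0.40, limma adjusted p = 0.763). Ppargc1a, which encodes the coactivator PGC-1alpha of mitochondrial biogenesis, read 11.26, 11.21, 11.13 and 11.18 in mutants, 11.14, 11.15, 11.38 and 11.29 in heterozygotes, and 11.33, 11.55, 11.62 and 11.63 in wild-type mice. All mutants lay below all wild-type mice, while heterozygotes overlapped both groups. The mutant level was 1.26-fold lower than wild type (log2 fold change -0.34 with an SE of 0.07, adjusted p = 0.0115).

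The fall of Ppargc1a was read by 1 of its 2 probe sets. The other, dimmer probe set averaged 10.55 ± 0.24 in mutants, 10.36 ± 0.21 in heterozygotes and 10.62 ± 0.03 in wild-type mice (SD, n = 4 each). There the mutants, from 10.27 to 10.86, spanned the whole wild-type range of 10.58 to 10.64, and limma gave a log2 fold change of -0.07 (SE 0.11, adjusted p = 0.747 over all probe sets). With the mean of both probe sets the gene was not called (adjusted p = 0.147). Whether the probe sets read different transcripts of the gene was not tested.

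Entry of long chains into mitochondria was represented by 4 genes, of which 1 was called. Slc25a20 encodes the carnitine-acylcarnitine translocase of the inner membrane, and it read 9.79, 10.21, 9.99 and 9.61 in mutants, 9.53, 9.38, 9.48 and 9.52 in heterozygotes, and 9.42, 9.22, 9.30 and 9.48 in wild-type mice. Every mutant lay above every control of either genotype. Its level was 1.46-fold above wild type (log2 fold change 0.55 with an SE of 0.10, adjusted p = 0.00627), and the difference from heterozygotes missed the threshold (1.34-fold, adjusted p = 0.0516). Without mutant replicate 4 the difference from heterozygotes was called (adjusted p = 0.0108). The rate-limiting carnitine palmitoyltransferase gene Cpt1a was not called, at 11.87 ± 0.15 in mutants, 11.90 ± 0.14 in heterozygotes and 11.98 ± 0.05 in wild-type mice (SD, n = 4 each). Nor were Cpt2, its partner in the inner membrane, and Crat, the carnitine acetyltransferase gene, with log2 fold changes against wild type of 0.11 (95% interval -0.06 to 0.29) and 0.01 (95% interval -0.10 to 0.13).

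The acyl-CoA dehydrogenases split by chain length in which members were called. Acadl, for long chains, read 11.48, 11.41, 11.31 and 11.30 in mutants, 11.23, 11.03, 11.14 and 11.15 in heterozygotes, and 11.05, 10.94, 10.79 and 10.82 in wild-type mice. No mutant overlapped a control, and heterozygotes averaged between the other genotypes. The gene was 1.39-fold above wild type, the smallest adjusted p of the 30 genes in this comparison (log2 fold change 0.47, SE 0.07, adjusted p = 0.00102). Its difference from heterozygotes was not called (1.18-fold, adjusted p = 0.0852). Acadvl, for very long chains, read 10.29, 10.29, 10.12 and 9.97 in mutants, 10.09, 9.95, 10.003 and 9.94 in heterozygotes, and 9.93, 9.87, 9.84 and 9.85 in wild-type mice. Mutants lay above wild type on every array but overlapped the heterozygotes, and the rise was 1.23-fold over wild type (adjusted p = 0.0157). Without wild type replicate 4 it missed the threshold (adjusted p = 0.0501, with 0.00326 to 0.0501 over all alternatives). Acadm and Acads, for medium and short chains, were not called, with log2 fold changes against wild type of -0.13 (95% interval -0.27 to 0.01) and 0.10 (95% interval -0.06 to 0.26). Whether the 4 dehydrogenases differed from each other in their change was not tested.

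The later steps of the mitochondrial cycle contained 3 called genes. Acaa2, the thiolase gene, read 12.15, 12.39, 12.18 and 12.17 in mutants, 11.73, 11.76, 11.87 and 11.89 in heterozygotes, and 11.86, 11.84, 12.03 and 11.95 in wild-type mice. Every mutant lay above every control, and the level was 1.24-fold above wild type (adjusted p = 0.0118) and 1.33-fold above heterozygotes (adjusted p = 0.00649). Eci1 encodes the mitochondrial enoyl-CoA isomerase that moves the double bonds of unsaturated fatty acids. It read 10.90, 10.995, 10.94 and 10.65 in mutants, 10.58, 10.45, 10.42 and 10.42 in heterozygotes, and 10.42, 10.32, 10.43 and 10.47 in wild-type mice. The mutants were again apart from both control groups, at 1.38-fold over wild type (adjusted p = 0.00165) and 1.33-fold over heterozygotes (adjusted p = 0.00923).

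Decr1, which encodes the mitochondrial dienoyl-CoA reductase, also serves unsaturated chains and read 10.89, 11.01, 10.67 and 10.74 in mutants, 10.82, 10.64, 10.74 and 10.76 in heterozygotes, and 10.69, 10.50, 10.44 and 10.54 in wild-type mice. One mutant lay below the highest wild-type array, and heterozygotes overlapped the mutants. The rise over wild type was 1.22-fold (adjusted p = 0.0335) and leaving out any 1 of mutant replicates 1 and 2 and wild type replicates 2, 3 and 4 ended the call (adjusted p from 0.0167 to 0.0916 over all alternatives). Hadha and Hadhb, the subunits of the trifunctional protein that acts on long chains, and Hadh, the dehydrogenase for shorter ones, were not called. Their log2 fold changes against wild type were 0.08, 0.11 and 0.11, with 95% intervals reaching up to 0.20, 0.22 and 0.22. Both probe sets of Hadhb read alike, with log2 fold changes of 0.11 and 0.13.

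None of the electron transfer genes was called in any comparison. Etfa and Etfb, the subunits of electron transfer flavoprotein, and Etfdh, the enzyme that passes its electrons to ubiquinone, had log2 fold changes against wild type of -0.03, -0.05 and 0.03, and their 95% intervals together covered -0.17 to 0.19. Etfa averaged 11.19 ± 0.11 in mutants, 11.19 ± 0.05 in heterozygotes and 11.22 ± 0.05 in wild-type mice (SD, n = 4 each).

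**Figure D2:**
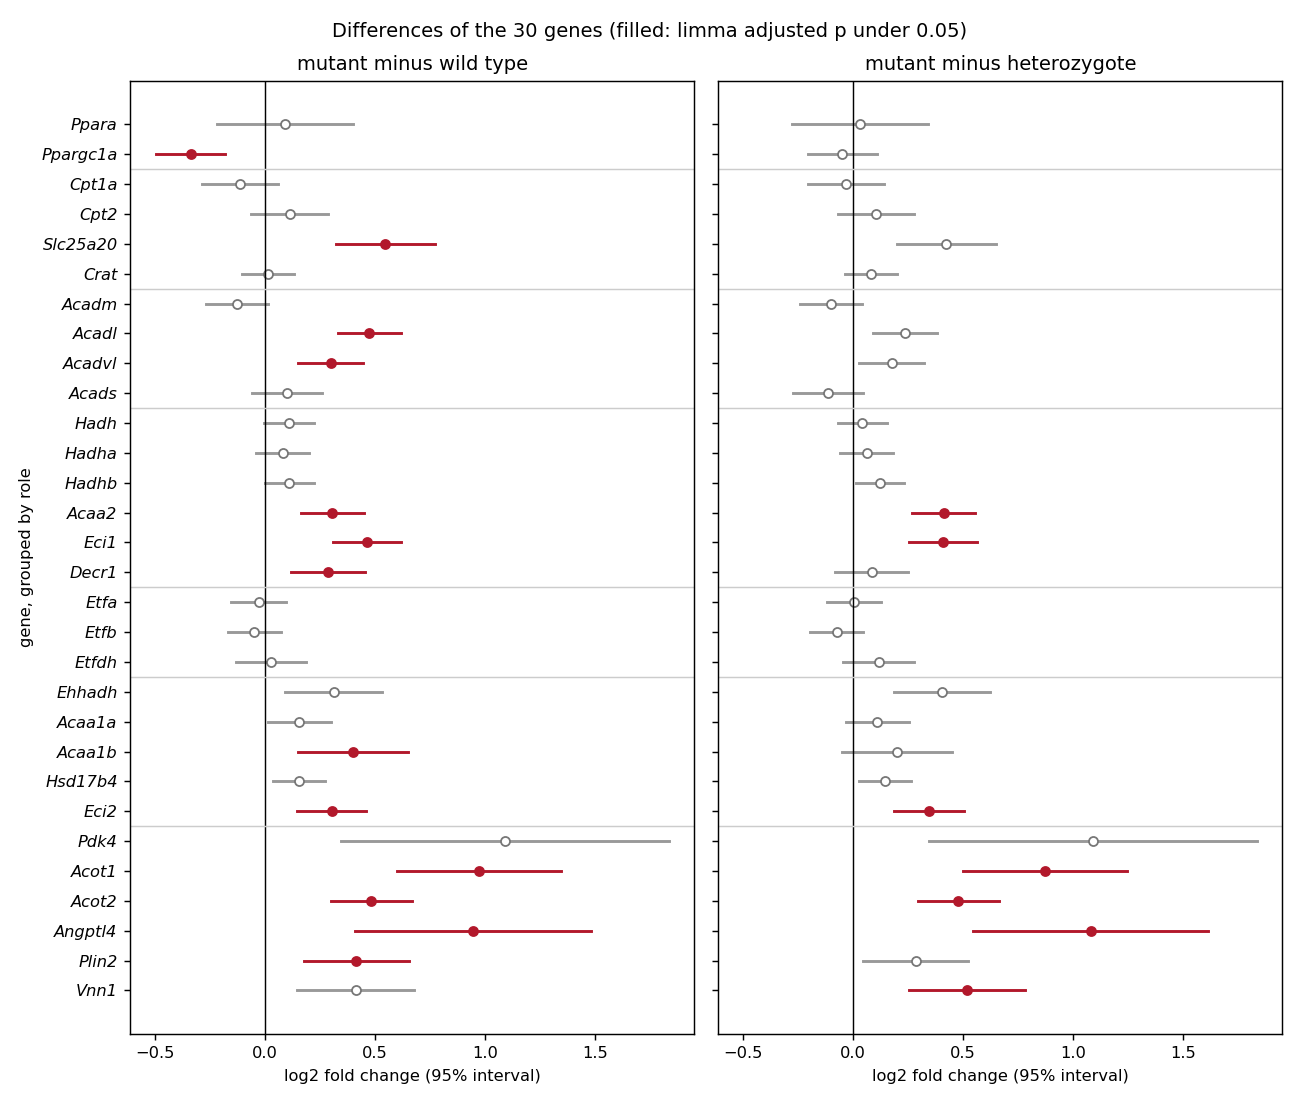
Log2 fold change with its 95% interval (horizontal axis) for the 30 genes grouped by role, mutant minus wild type at the left and mutant minus heterozygote at the right. Filled red points had an adjusted p under 0.05, 13 against wild type and 7 against heterozygotes, and the electron transfer genes lie close to 0.

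All 5 peroxisomal genes had positive fold changes, and 2 were called against wild type. Eci2, an enoyl-CoA isomerase of peroxisomes, read 9.64, 9.81, 9.90 and 9.52 in mutants, 9.32, 9.30, 9.46 and 9.43 in heterozygotes, and 9.40, 9.39, 9.42 and 9.46 in wild-type mice. Mutants lay above both control groups, by 1.23-fold over wild type (adjusted p = 0.0212) and 1.27-fold over heterozygotes (adjusted p = 0.027). Against wild type the call ended without mutant replicate 2 or wild type replicate 2 (adjusted p from 0.00578 to 0.0604 over all alternatives), and against heterozygotes it ended without mutant replicate 2 or heterozygote replicate 1, 2 or 4 (adjusted p from 0.00669 to 0.101). Acaa1b, a peroxisomal thiolase gene, read 10.13, 10.19, 9.70 and 9.93 in mutants, 9.89, 9.52, 9.88 and 9.85 in heterozygotes, and 9.82, 9.58, 9.45 and 9.51 in wild-type mice. Its groups overlapped, and its 1.32-fold rise over wild type was close to the threshold (adjusted p = 0.0471). It was called without mutant replicate 3, heterozygote replicate 2 or wild type replicate 1, and not without any 1 of the other 9 arrays (adjusted p from 0.0137 to 0.130 over all alternatives). Its close relative Acaa1a was 1.11-fold above wild type and not called (adjusted p = 0.166). The arrays may not separate these paralogs fully.

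Ehhadh and Hsd17b4, the bifunctional enzymes that carry out the middle steps of peroxisomal oxidation, were not called with all arrays. Ehhadh read 11.63, 11.98, 11.76 and 11.41 in mutants, 11.45, 11.20, 11.30 and 11.21 in heterozygotes, and 11.50, 11.27, 11.44 and 11.33 in wild-type mice. Mutant replicate 4 alone lay within the control range. The fold changes were 1.24 against wild type (adjusted p = 0.0726) and 1.32 against heterozygotes (adjusted p = 0.0561), and both differences were called without mutant replicate 4 (adjusted p = 0.0147 and 0.0113). Hsd17b4 was 1.11-fold above wild type with all mutants above all wild-type arrays (adjusted p = 0.0961), and was called without mutant replicate 4 (adjusted p = 0.0407).

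Among the 6 other targets 4 were called higher, with rises of up to 1.96-fold. Acot1, a cytosolic acyl-CoA thioesterase gene, read 8.05, 8.75, 8.46 and 7.68 in mutants, 7.41, 7.21, 7.47 and 7.36 in heterozygotes, and 7.44, 7.18, 7.34 and 7.09 in wild-type mice. The mutants lay above both control groups but differed among themselves by more than 1 log2 unit. The gene was 1.96-fold above wild type (log2 fold change 0.97 with an SE of 0.17, adjusted p = 0.0043) and 1.83-fold above heterozygotes (adjusted p = 0.0191). Against heterozygotes the call ended without heterozygote replicate 1, 2 or 4 (adjusted p from 0.00192 to 0.0776 over all alternatives). Acot2, the mitochondrial thioesterase gene, read 9.80, 10.08, 10.07 and 9.82 in mutants, 9.52, 9.27, 9.52 and 9.55 in heterozygotes, and 9.62, 9.37, 9.46 and 9.40 in wild-type mice. Mutants were apart from all controls, at 1.4-fold over wild type (adjusted p = 0.00414) and 1.39-fold over heterozygotes (adjusted p = 0.0106).

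Acot1 and Acot2 are neighbours on chromosome 12, with RefSeq starts 21641 bases apart on the plus strand of GRCm38.p6. Because both were called higher in mutants, the 100 bases before each start are shown, from chr12:84009402-84009501 for Acot1 and chr12:83987761-83987860 for Acot2, and capitals mark the best match to AGGTCANAGGTCA, the direct repeat that PPAR-alpha binds with its partner, on either strand.
Acot1: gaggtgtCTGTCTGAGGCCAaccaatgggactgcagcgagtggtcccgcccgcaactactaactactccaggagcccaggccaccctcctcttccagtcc
Acot2: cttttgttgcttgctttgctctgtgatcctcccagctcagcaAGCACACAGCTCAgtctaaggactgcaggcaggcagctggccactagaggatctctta
The matches differ from the repeat at 4 and 3 of its 12 fixed letters, more than the limit of 2 mismatches set for the search. Aligned without gaps from their starts, the stretches share 24 of 100 bases, near the share of unrelated stretches written in 4 letters.

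Angptl4, whose product inhibits lipoprotein lipase, read 8.82, 9.84, 9.93 and 8.81 in mutants, 7.98, 8.18, 8.47 and 8.44 in heterozygotes, and 8.40, 8.01, 8.78 and 8.43 in wild-type mice. The mutants fell into a higher and a lower pair, and the lower pair lay within 0.05 of the highest wild-type array. The gene was 1.92-fold above wild type (log2 fold change 0.94 with an SE of 0.25, adjusted p = 0.0294) and 2.11-fold above heterozygotes (adjusted p = 0.0368). Without mutant replicate 3, neither difference was called (1.68-fold, adjusted p = 0.0687, and 1.85-fold, adjusted p = 0.0745). Against wild type the call also ended without mutant replicate 2 or wild type replicate 1, 2 or 4 (adjusted p from 0.0128 to 0.0961 over all alternatives). Against heterozygotes it also ended without mutant replicate 2, any 1 heterozygote, or wild type replicate 1 or 4 (adjusted p from 0.0156 to 0.110).

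Plin2, which encodes a lipid droplet coat protein, read 10.08, 10.16, 10.66 and 10.01 in mutants, 9.99, 9.85, 9.99 and 9.94 in heterozygotes, and 9.92, 9.80, 9.77 and 9.77 in wild-type mice. The highest value was that of mutant replicate 3, the array with the adrenal cortex genes, and the part of that tissue in it was not tested. Plin2 was 1.33-fold above wild type with all arrays (log2 fold change 0.41, adjusted p = 0.0328). Without mutant replicate 3 the log2 fold change was 0.27 (adjusted p = 0.0154), and all other mutants still lay above all wild-type arrays. Leaving out wild type replicate 2, 3 or 4 ended the call (adjusted p from 0.0154 to 0.0915 over all alternatives). The difference from heterozygotes was not called (1.22-fold, adjusted p = 0.219).

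Pdk4 encodes the kinase that turns off pyruvate dehydrogenase and had the largest mean difference of the 30 genes, without passing the test. It read 10.47, 11.09, 11.26 and 10.10 in mutants, 8.94, 9.36, 10.15 and 10.11 in heterozygotes, and 9.31, 8.92, 10.35 and 9.99 in wild-type mice. The controls themselves spread over more than 1 log2 unit, and the lowest mutant lay inside their range. The fold change was 2.13 against wild type (95% interval 1.27 to 3.56, adjusted p = 0.0653) and 2.13 against heterozygotes (adjusted p = 0.128). Against wild type the difference was called without mutant replicate 4 or wild type replicate 3 (adjusted p = 0.037 and 0.0427). It was also called in the blocked fit (adjusted p = 0.0336, with 0.0336 to 0.190 over all alternatives).

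Vnn1, which encodes the pantetheinase vanin-1, read 11.74, 11.68, 11.45 and 11.08 in mutants, 10.94, 10.81, 11.13 and 10.99 in heterozygotes, and 11.02, 10.94, 11.19 and 11.16 in wild-type mice. Mutant replicates 1 to 3 lay above every control and mutant replicate 4 among them. The rise was called against heterozygotes (1.43-fold, adjusted p = 0.0427) and missed the threshold against wild type (1.33-fold, adjusted p = 0.0511). The call against heterozygotes ended without any 1 of 11 arrays, all but mutant replicate 4 (adjusted p from 0.00344 to 0.124 over all alternatives), and in the blocked fit (adjusted p = 0.0708). Without mutant replicate 4 the difference from wild type was called too (adjusted p = 0.00381).

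**Figure D3:**
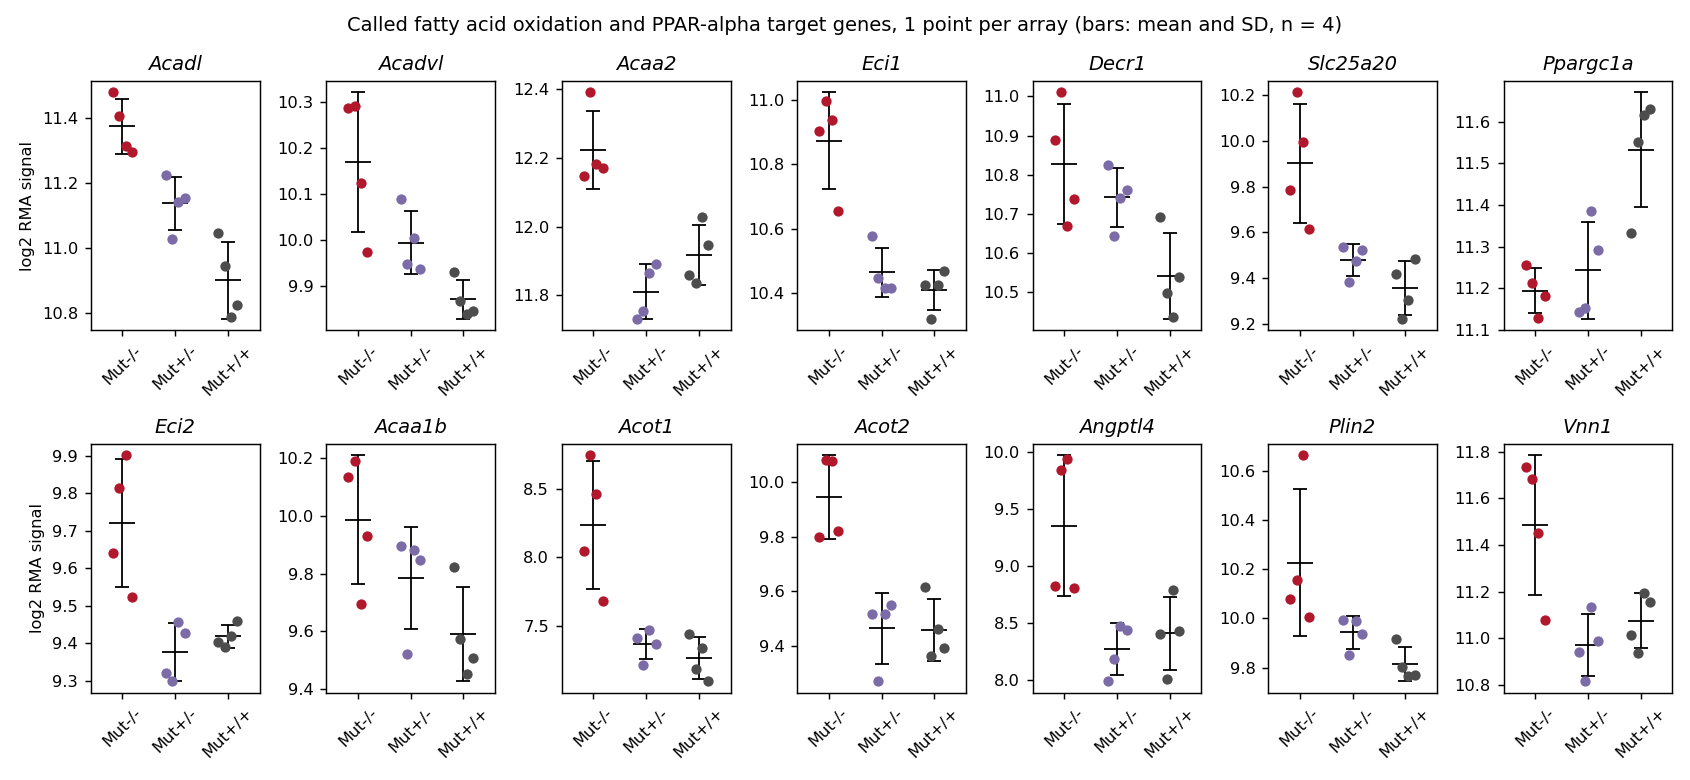
Log2 RMA signal (vertical axes, each panel on its own scale) for the 14 genes called in at least 1 comparison, with 1 point per array and bars for the mean and SD of 4 arrays, mutants at the left. In Acadl, Acaa2, Eci1, Slc25a20, Eci2, Acot1, Acot2, Angptl4 and Plin2 every mutant lies above every wild-type and heterozygote array.

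Against heterozygotes 7 of the 30 genes were higher in mutants and none was lower, where 2.54% of all genes were called, 1.07% higher and 1.46% lower. They were Acaa2, Eci1, Eci2, Acot1, Acot2, Angptl4 and Vnn1, and 6 of the 7 were also among the genes called against wild type. Both comparisons share the 4 mutant arrays. All mutants lay above all heterozygotes for 9 of the 30 genes, against 4.04% of all genes, and below them for none, against 5.65%. The median log2 fold change of the 30 genes was 0.13, and -0.01 over all genes. Without mutant replicate 3, 5 genes were called, and 3 were called without heterozygote replicate 1, 2 or 4. Without mutant replicate 2, 4 genes were called. Calls over all genes also fell without any 1 heterozygote. Shares over all genes without mutant replicate 2 or 3 are not given for this comparison. Whether these losses are particular to the set was not tested.

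No gene of the set was called between heterozygotes and wild-type mice by limma, where 0.135% of all genes were called, 0.0652% higher and 0.0702% lower. All heterozygotes lay above all wild-type arrays for 2 of the 30 genes, Acadvl and Acads, against 3.18% of all genes, and below them for none, against 5.26%. An unadjusted p under 0.05 was found for 4 of the 30 genes (13.3%) and for 11.3% of all genes. These 4 were Acadl, Acads and Decr1, with positive log2 fold changes of 0.24, 0.22 and 0.20, and Ppargc1a at -0.29 (adjusted p = 0.158). Ppargc1a was called lower in heterozygotes without wild type replicate 1 (adjusted p = 0.0418, with 0.0418 to 0.480 over all alternatives). Among the 12 genes called higher in mutants against wild type, the heterozygote mean lay between the other means for 9 and below wild type for Acaa2, Eci2 and Angptl4. These 12 were chosen by a comparison with the same wild-type arrays, so this order tests nothing. Over all 30 genes the heterozygote difference from wild type was positive for 17 and negative for 13 (median log2 fold change 0.01). It was positive for 10563 of all 19934 genes. Eci1 and Angptl4 lie on chromosome 17, as Mmut does, and neither was called in heterozygotes (log2 fold changes of 0.05 and -0.14). The part of gene position in their differences in mutants was not tested.

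The mutants differed among themselves in how far the set was shifted. Averaged over the 12 genes called higher, the deviation from the wild-type mean was 0.42, 0.68, 0.58 and 0.27 on the log2 scale in mutant replicates 1, 2, 3 and 4. Heterozygotes lay between -0.03 and 0.12 and wild-type arrays between -0.08 and 0.09 on the same measure. Since these genes were chosen by the same comparison, the averages describe the arrays and test nothing. Mutant replicate 2 held the highest mutant value for 17 of the 30 genes, and mutant replicate 4 the lowest for 17. These 2 counts were not made over all genes, so whether they are particular to the set was not tested. The SD among mutants exceeded that among wild-type mice for 25 of the 30 genes, against 59.8% of all genes. This count was not made without mutant replicate 3, which held the highest mutant value for 6 of the 30 genes and the lowest for 10. The part of the adrenal cortex signal in this spread was not tested.

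**Figure D4:**
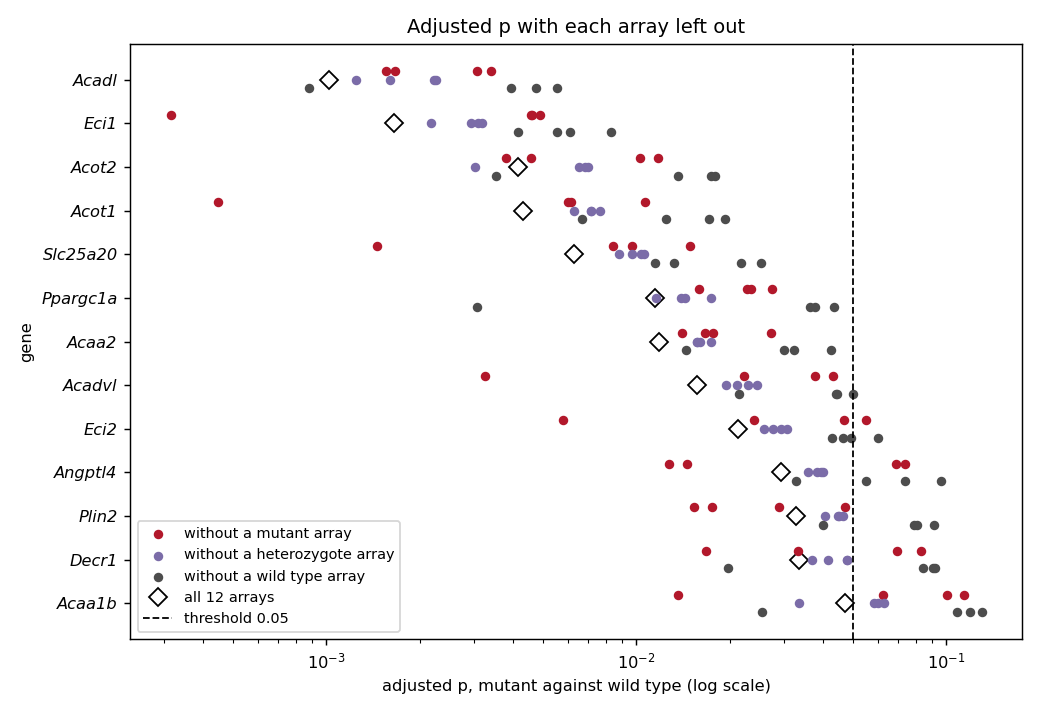
Adjusted p of mutant against wild type (horizontal log axis) for the 13 called genes, with all 12 arrays (diamonds) and with each array left out (points coloured by the group of that array). Acadl, Eci1, Acot2, Acot1, Slc25a20, Ppargc1a and Acaa2 stay left of the dashed threshold of 0.05 in every case, and Acaa1b crosses it most often.

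Other genes of the pathway were read from 3 lists, also chosen with earlier results of these data known. Their shares beside all genes therefore describe the lists and test nothing. Of 42 measured further genes of fatty acid oxidation, 4 were higher and 1 lower in mutants against wild type (9.52% and 2.38%, where 2.96% and 6.69% of all genes were), with a median log2 fold change of -0.02. Hacl1, a peroxisomal lyase of alpha-oxidation, was 1.59-fold higher (adjusted p = 0.0018), and Acox2, the peroxisomal oxidase of branched chains, was 1.42-fold higher (adjusted p = 0.0158). Pex11a, a factor of peroxisome division, and Decr2, the peroxisomal dienoyl-CoA reductase gene, were 1.36-fold and 1.3-fold higher. Acadsb, the dehydrogenase of short branched chains in isoleucine breakdown, was 1.19-fold lower. Against heterozygotes 5 were higher (11.9%, where 1.07% of all genes were) and none lower, namely Hacl1, Acox2, Pex11a, Decr2 and the acyl-CoA synthetase gene Acsf2 (1.56-fold), which was named after its values were seen. With each array left out in turn, the 5 calls against wild type all held, while against heterozygotes Acox2 was lost without 4 of the arrays and Pex11a without 5, mutant replicate 3 not among them.

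Of 35 measured further genes linked to PPAR-alpha, 6 were higher and 1 lower in mutants against wild type (17.1% and 2.86%, where 2.96% and 6.69% of all genes were), with a median log2 fold change of 0.12. G0s2, an inhibitor of triglyceride lipase, was 1.92-fold higher (adjusted p = 0.000668), and the fatty acid hydroxylase genes Cyp4a14 and Cyp4a10 were 1.68-fold and 1.14-fold higher. Ephx2, the soluble epoxide hydrolase gene, and Gpt, an alanine aminotransferase gene, were 1.25-fold and 1.39-fold higher. Cd36, the fatty acid translocase gene, was 1.55-fold lower (adjusted p = 0.00333). Fabp1, the liver fatty acid binding protein gene, was 6.97-fold higher in mutants (adjusted p = 0.00439) and also 7.79-fold higher in heterozygotes than in wild-type mice (adjusted p = 0.0447). It read 11.30, 8.53, 9.90 and 8.01 in mutants, 9.81, 9.69, 9.52 and 9.35 in heterozygotes, and 6.84, 6.70, 6.52 and 6.47 in wild-type mice, so all mutants and all heterozygotes lay above all wild-type mice. Mutant replicate 1 was the highest of all arrays, and without it the rise in mutants was 4.53-fold (adjusted p = 0.00191). The call in mutants held with each array left out, while that in heterozygotes ended without any 1 heterozygote or wild type replicate 2, 3 or 4 (adjusted p up to 0.165). Between mutants and heterozygotes Fabp1 was not called (log2 fold change -0.16, limma adjusted p = 0.939). Fabp1 lies on chromosome 6 and Mmut on chromosome 17, and the part of gene position in these differences was not tested. Cyp4a10 was not called without mutant replicate 2 or 3 or wild type replicate 2, 3 or 4 (up to 0.0882), nor Gpt without wild type replicate 3 or 4 (up to 0.0738). Against heterozygotes G0s2, Cyp4a14 and Ephx2 were higher and Cd36 lower (8.57% and 2.86% of the list, where 1.07% and 1.46% of all genes were), with G0s2 lost without heterozygote replicate 1 or 3 and Cd36 without heterozygote replicate 1 or 4.

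Of 24 measured nuclear receptors and coregulators none was higher and 4 were lower in mutants against wild type (16.7% lower, where 6.69% of all genes were), with a median log2 fold change of -0.08. These were Rxrg, a retinoid X receptor gene, Prkaa1, a catalytic subunit gene of AMP-activated kinase, Ppard, the gene of the related receptor PPAR-delta, and the coactivator gene Ncoa1, which were 1.26-fold, 1.25-fold, 1.19-fold and 1.13-fold lower. Rxrg was dim, at 5.89 in mutants and 6.23 in wild-type mice. The other retinoid X receptor genes Rxra and Rxrb, at 9.25 and 8.71 in mutants, were not called (log2 fold changes of 0.14 and 0.07). Prkaa1 was called with each array left out. Rxrg was lost without mutant replicate 2 or wild type replicate 2 or 4, Ppard without wild type replicate 4, and Ncoa1 without 10 of the 12 arrays, mutant replicate 3 among them. Prkaa1 was the one gene called against heterozygotes (4.17% of the list, where 1.46% of all genes were lower), and without mutant replicate 3 it was not (adjusted p = 0.0966).

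The letters of the PPAR-alpha repeat were looked for in RefSeq promoters of GRCm38.p6, from 250 bases before to 50 after the start, which were given for 24 of the 30 genes. AGGTCANAGGTCA was searched on both strands with up to 2 mismatches at its 12 fixed letters. Such a match was held by 3 of the 24 promoters (12.5%), against 3.86% of all 32851 promoters of the same length. The contrast depends on this limit. With up to 3 mismatches the shares were 29.2% and 24.6%, and with up to 1 they were 0% and 0.554%. The 3 windows are shown 5′ to 3′ on the strand of the gene, with the match in capitals, for Plin2 (chr4:86670252-86670304, minus strand), Slc25a20 (chr9:108662122-108662165, plus strand) and Etfa (chr9:55512288-55512340, minus strand).
Plin2: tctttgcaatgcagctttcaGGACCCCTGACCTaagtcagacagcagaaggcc
Slc25a20: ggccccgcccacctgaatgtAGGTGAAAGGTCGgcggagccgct
Etfa: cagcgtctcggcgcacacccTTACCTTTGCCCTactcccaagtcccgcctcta
In Plin2 and Etfa the repeat lies on the opposite strand, at positions -225 to -213 and -77 to -65 from the start, and in Slc25a20 it lies at positions 7 to 19 of the transcript. Plin2 and Slc25a20 were called higher in mutants and Etfa was not called. A match of letters describes these windows and does not show a site in use.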

How the data were processed

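The deposited values are log2 signals, 1 for each probe set. Per the labels they come from RMA, and the submitters' processing notes name Expression Console 1.2.1. In RMA the arrays are given equal distributions after background removal, and differences near background are compressed. The table of 35552 probe sets on 12 arrays was used as deposited. Of these, 21785 had 1 gene symbol in the platform annotation, and the brightest per gene gave 19934 genes. Array numbers in the sample descriptions follow the genotypes, and no scan date or batch is given in the sources used here, so an effect of processing order and genotype cannot be told apart.

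Groups came from the sample titles. All 3 groups were fitted together with limma 3.58.1 (lmFit and eBayes) in R 4.3.3, with 9 residual and 4.408 prior degrees of freedom. A gene was called at a Benjamini-Hochberg adjusted p under 0.05 over all genes of a comparison. The design text gives 4 mice per genotype, so p-values measure the spread between mice. The fit was tested on simulated data. Python 3.11.15 and matplotlib 3.10.9 drew the figures.

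The members and lists were chosen with earlier results of these data known. All members are accounted for, with every array's value for those called in any comparison and for Ppara and Ppargc1a. Of the other pathway lists the called genes of mutant against wild type were named, at most 8 per list and at most 6 rising or 4 falling, largest changes first. The values of Pdk4 and Ehhadh on every array were added after they were seen. The marker lists are cell type genes from general knowledge. Alternatives were a block for the replicate number, omission of each array, a group mean of at least 6, averaging all probe sets per gene, only the groups compared, centred array medians, quantile normalisation, a trended and robust prior, and array weights. The other probe set of a gene, and omission of arrays for the pathway and marker lists, were added after seeing the data.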

Additional observations from a re-analysis of the deposited data

Results flagged for a closer look

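In 6 of 90 groups of 4 arrays (30 genes in 3 genotypes), 1 array's gap to its nearest neighbour took up more of the group's range than Dixon's 95% critical value allows. Chance flags about 1 in 20 such groups. Among mutants these were Acaa2 in replicate 2, at 12.39 against 12.15 to 12.18 in the other mutants, and Etfa in replicate 1, at 11.35 against 11.13 to 11.14. Among heterozygotes they were Acaa1a in replicate 3, at 9.03 against 8.85 on the others, Acaa1b in replicate 2, at 9.52 against 9.85 to 9.89, and Acot2 in replicate 2, at 9.27 against 9.52 to 9.55. Among wild-type mice it was Crat in replicate 2, at 10.75 against 10.84 to 10.86.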

How the results depend on the processing

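Of the 30 genes, 13 were called between mutant and wild type, 7 between mutant and heterozygote and 0 between heterozygote and wild type. With 1 array left out these counts ran from 8 to 16, from 3 to 9 and from 0 to 1. With only the groups compared in the fit they were 8, 3 and 0. Under the other alternatives they ran from 12 to 14, from 6 to 9 and at 0, and no called gene changed sign under any alternative. Slc25a20, Acadl, Acaa2, Eci1, Acot1 and Acot2 were called against wild type under all 20 alternatives, as were Acaa2, Eci1 and Acot2 against heterozygotes. The replicate number as a block gave 14, 6 and 0 calls. The deviations of same-numbered arrays from their group means correlated between -0.239 and 0.168. Of 12 arrays, 1 deviated most like those of its own number. So few arrays cannot settle whether the numbers pair the mice. Over all genes 1925 were called between mutant and wild type with all arrays, 1019 without wild type replicate 4, 1125 without wild type replicate 2 and 1154 with only those groups in the fit. Between mutant and heterozygote, 506 genes were called with all arrays, and 229, 235, 248 and 308 without heterozygote replicates 4, 1, 3 and 2, and 191 with only those groups. Between heterozygote and wild type, 27 genes were called, from 5 to 67 with an array left out, 7 with the block, 78 with only those groups, 42 with the trended and robust prior and 163 with array weights. The probe sets cannot show changes of transcripts they do not read, and close relatives such as Acaa1a and Acaa1b may share signal.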
